A study of Mus musculus with 12 samples.

Results

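The response to T3 (triiodothyronine, the active thyroid hormone) was described across all genes of the C17.2a line, using its 6 libraries of the 12 in the series. C17.2 is a mouse neural progenitor line, and C17.2a cells stably carry a tagged copy of the thyroid hormone receptor alpha. Both groups of C17.2a cells spent 24 h in serum-free medium and were then left untreated or given T3 at 1e-07 M for 6, 12 or 24 h, with 1 library for each treatment and time. A T3 library and the untreated library of the same time form a pair, which gives 3 pairs. The other 6 libraries come from C17.2b, the same progenitor line with a tagged receptor beta, treated in the same way, and serve here for the spread between pairs and for a comparison of the lines. The promoter that drives the tagged receptor, its level against the cells' own receptors and whether the line is a single clone are not given in the sources used here.

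Thyroid hormone receptors are nuclear receptors that sit on DNA mostly as heterodimers with retinoid X receptors. Without hormone they recruit corepressors at many target genes, and T3 exchanges these for coactivators, so that hormone raises transcription at positively regulated genes, while other genes fall with hormone. In the nervous system T3 is known for its part in the timing of progenitor differentiation, in myelination and in the maturation of neurons and glia. Its best known direct targets include Hr, a corepressor of nuclear receptors, and Klf9, a zinc finger transcription factor.

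Levels are in RPM, a gene's sequence tags scaled to the total tags of its library, and every level is 1 library without a replicate. The implied depth of the C17.2a libraries was between 8380000 tags (T3, 24 h) and 14130000 tags (T3, 12 h), and 3 tags corresponded to between 0.212 and 0.358 RPM. Ratios and fold changes are T3 against untreated on the log2(RPM + 1) scale, which understates changes of low genes. Their error is the standard error (SE) of a limma fit whose spread is estimated over the pairs of both lines, and p-values are limma's with Benjamini-Hochberg adjustment over all genes tested, at a threshold of 0.05. No source says that the libraries came from separate cultures, so these p-values measure the spread between pairs, which also holds real differences between times.

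The 24 h pair stood apart. Across 10577 genes the T3 and untreated levels of a pair had a Spearman correlation of 0.979, 0.98 and 0.91 at 6, 12 and 24 h, and the log2 ratios had an SD of 0.425, 0.412 and 0.942. In a principal component analysis of the 6 libraries the first component (57.1% of the variance) separated the 2 libraries of 24 h from the 4 earlier ones, and the second (27.3%) set the T3 library of 24 h at 55.5 against -41.0 for its untreated partner and -12.8 to 3.3 for the rest. The tested results are therefore given for all 3 pairs and for the 6 and 12 h pairs alone. The 24 h library with T3 is deposited with N/A, read here as 0, for 10 symbols that exceed 5 RPM elsewhere in C17.2a, while no other C17.2a library has more than 1 such symbol.

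The cells expressed the progenitor markers. Sox2, a transcription factor of neural stem cells, lay at 186, 188 and 104 RPM in the untreated libraries of 6, 12 and 24 h, and the intermediate filaments Nes and Vim at 110.3, 119 and 642 RPM and 2334, 1928 and 4941 RPM. Sox10, a regulator of glial and neural crest lineages, and S100a4, a mesenchymal marker, were also high, at 517, 348 and 217 RPM and 3187, 2657 and 2565 RPM. Of the markers of microglia (9 listed) and endothelium (7 listed) only 1 and 2 are in the table, and their summed levels were at most 0.2 and 1.59 RPM in C17.2a. Of 8 muscle markers 4 are in the table, with sums from 0.48 to 2.32 RPM, and of 7 neutrophil markers 3, with sums from 18.73 to 82.78 RPM and the lowest sum in the T3 library of 24 h.

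The receptor genes themselves were low and did not pass the test. Thra, the gene of receptor alpha, was measured at 3.40, 2.04 and 5.0 RPM without T3 and at 2.68, 2.41 and 0.12 RPM with T3. Thrb, the gene of receptor beta, lay at 1.55, 0.98 and 1.33 RPM without and 2.19, 1.77 and 1.79 RPM with T3. The T3 level of Thra at 24 h was below the level of 3 tags, and its log2 fold change was -0.84 (SE 0.44) with an adjusted p of 0.372 over 3 pairs and -0.05 (SE 0.22) with an adjusted p of 0.951 at 6 and 12 h. Which part of the tagged copy the tags could come from is not given, so these values do not check the transgene.

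Over the 3 pairs T3 raised 96 genes of C17.2a and lowered 49, which is 0.908% and 0.463% of the 10577 genes tested and 1.37% together. Genes that rose included a hypoxia transcription factor, a decoy chemokine receptor, a nuclear receptor corepressor and a potassium channel, and genes that fell included a peripheral myelin protein, a GABA-B receptor subunit and adhesion molecules. All 145 genes had 1 sign in the 3 pairs. Those pairs also called them, so the shared sign is no separate support, and its share over all tested genes was not counted. The number called rested on every pair, being 32 and 35 without the 6 h and the 12 h pair and 462 without the 24 h pair. It was 73, 49 and 70 without the C17.2b pair of 6, 12 or 24 h, 28 when the pairing was ignored and 12 with the C17.2a libraries alone, where 2 degrees of freedom were left.

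Epas1, which encodes the hypoxia-inducible transcription factor HIF-2 alpha, had the highest fold change among the genes called on the log2(RPM + 1) scale. That scale holds down the folds of genes near 0 without T3, such as Slc1a2 below, so the order does not rank Epas1 above them. It lay at 3.32, 2.84 and 8.47 RPM in the untreated libraries of 6, 12 and 24 h and at 55.1, 60.8 and 172 RPM with T3. Every T3 library was above every untreated library, and the log2 fold change was 3.97 (SE 0.17) with an adjusted p of 8.08e-05, or 15.6-fold on that scale (n = 3 pairs). Such a lack of overlap, here and below, only describes genes that were chosen from these same libraries. Its share over all tested genes was not counted. Cxcr7 (now Ackr3), a receptor that takes up the chemokine CXCL12, went from 9.82, 6.31 and 7.55 RPM to 74.8, 78.6 and 169 RPM, and its log2 fold change was 3.52 (SE 0.37) with an adjusted p of 0.00496. Its log2 ratio was 2.81, 3.45 and 4.31 at the 3 times.

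The classical target Hr rose without overlap between the groups. Its levels were 2.16, 1.69 and 4.29 RPM without and 36.4, 34.2 and 47.0 RPM with T3, a log2 fold change of 3.49 (SE 0.18) with an adjusted p of 0.000181. Kcna1, a voltage-gated potassium channel subunit, had 24.7, 14.1 and 14.0 RPM without and 226, 255 and 133 RPM with T3, and its log2 fold change was 3.46 (SE 0.21) with an adjusted p of 0.000468. Slc1a2, the main glutamate transporter of astrocytes, is deposited as N/A in the untreated library of 6 h and lay at 0.18 and 0.10 RPM in those of 12 and 24 h, against 4.87, 13.0 and 10.7 RPM with T3. The measured untreated values of Slc1a2 are below the level of 3 tags, so its fold is not given, and its adjusted p was 0.00125.

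The other genes named by size and described here also lay above untreated in each pair, which the naming rule required. Arrdc3, an alpha-arrestin that controls receptor trafficking, rose from 11.98, 10.8 and 11.2 RPM to 66.7, 106 and 149.6 RPM, a log2 fold change of 3.06 (SE 0.28) with an adjusted p of 0.00261. Socs2, a suppressor of cytokine and growth hormone signalling, rose from 7.04, 7.11 and 24.5 RPM to 63.7, 82.9 and 141 RPM, at 2.95 (SE 0.23) with an adjusted p of 0.00125. The amino acid transporter Slc43a2 rose from 10.1, 9.77 and 8.17 RPM to 76.4, 69.3 and 48.3 RPM, at 2.65 (SE 0.17) with an adjusted p of 0.000468. These 3 genes did not overlap between T3 and untreated. Flrt1, a leucine-rich repeat protein of the cell surface, reached 18.3, 20.5 and 4.29 RPM from 1.16, 0.44 and 0.61 RPM, so its 24 h level with T3 was the lowest of the 3. Npnt, a ligand of integrins in the extracellular matrix, reached 7.06, 8.07 and 2.86 RPM from 0.31, 0.09 and 0.10 RPM, and Phospho1, a phosphatase of phosphocholine, 45.9, 60.9 and 61.1 RPM from 11.9, 10.4 and 10.1 RPM. The untreated levels of Npnt at 12 and 24 h were below the level of 3 tags, and its log2 fold change ran from 1.06 to 4.82 over the alternatives. The adjusted p of Flrt1, Npnt and Phospho1 were 0.0102, 0.00496 and 0.00219. The call of Flrt1 was lost without the 6 h or the 12 h pair and that of Npnt without the 6 h pair. Both were also lost with the C17.2a libraries alone.

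**Figure D1:**
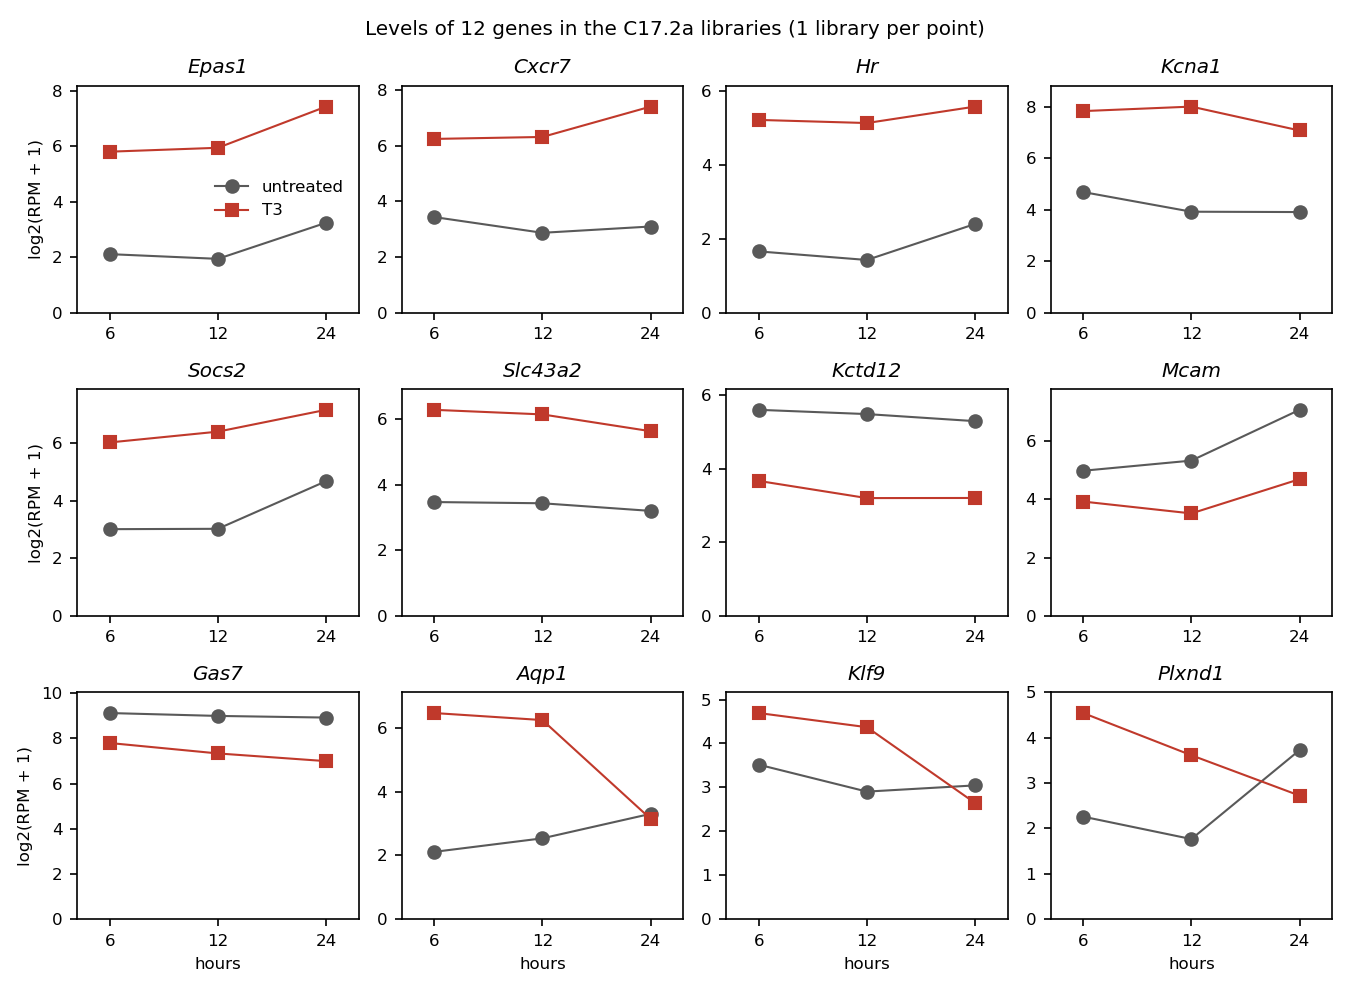
Levels of 12 genes in the 6 C17.2a libraries, with hours of treatment on the x axis and log2(RPM + 1) on the y axis; each point is 1 library, grey circles are untreated, red squares T3, and lines only join the times. Epas1 to Slc43a2 lay higher with T3 at each time and Kctd12, Mcam and Gas7 lower, which the rule that named them required. Aqp1, Klf9 and Plxnd1 were higher at 6 and 12 h and lower at 24 h.

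Among the genes that fell, Kctd12, an auxiliary subunit of GABA-B receptors, had the smallest adjusted p. It lay at 47.6, 43.9 and 38.3 RPM without T3 and at 11.7, 8.21 and 8.23 RPM with T3, and its log2 fold change was -2.10 (SE 0.14) with an adjusted p of 0.000667. Its call held under all 15 alternatives run. Gas7, a growth arrest protein of neurons that acts on the actin cytoskeleton, was lowered from 556, 509 and 484 RPM to 221, 160.2 and 126 RPM, at -1.64 (SE 0.16) with an adjusted p of 0.00394. Neither gene overlapped between T3 and untreated.

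The other 10 genes named among those that fell included several of cell contacts and of the neuronal surface. Mcam, an adhesion molecule of the immunoglobulin superfamily, had 30.7, 39.4 and 134 RPM without and 14.2, 10.5 and 24.9 RPM with T3, a log2 fold change of -1.75 (SE 0.26) with an adjusted p of 0.0197. Chl1, a relative of L1 that guides neurites, had 2.63, 3.91 and 6.94 RPM and 0.10, 0.57 and 1.19 RPM, at -1.74 (SE 0.22) with an adjusted p of 0.0111. The T3 level of Chl1 at 6 h was below the level of 3 tags, and its log2 fold change ran from -2.91 to -0.74 over the alternatives. Pmp2, a fatty acid binding protein of peripheral myelin, had 25.0, 31.9 and 37.9 RPM and 9.44, 6.44 and 3.94 RPM, at -2.15 (SE 0.37) with an adjusted p of 0.0355. Every T3 library was below every untreated library in all 3 genes, and the log2 ratio of Pmp2 was -1.31, -2.14 and -2.98 at 6, 12 and 24 h. Nefm, the medium neurofilament protein, fell from 4.10, 3.29 and 2.45 RPM to 0.50, 0.28 and 0.24 RPM, the last below the level of 3 tags (adjusted p = 0.00587), and Kcnmb4, a subunit of calcium-activated potassium channels, from 6.57, 3.46 and 13.3 RPM to 0.89, 1.13 and 2.27 RPM (adjusted p = 0.0162). Epb4.1l3 and Epb4.1l4b, which tie membrane proteins to the cytoskeleton, fell by 1.56 and 1.82 on the log2 scale. The desmosomal glycoprotein Cdsn, the planar polarity protein Prickle2 and the lipid flippase Atp10b completed the 12, with log2 fold changes of -1.95 (SE 0.37), -1.61 (SE 0.28) and -1.95 (SE 0.23) and adjusted p of 0.0493, 0.036 and 0.0093. With the C17.2a libraries alone 11 of the 12 calls of genes that fell were lost, Kctd12 being the exception, and without the 6 h or the 12 h pair 8 of the 12 were lost.

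At 6 and 12 h alone T3 raised 291 genes and lowered 171, or 2.8% and 1.65% of 10391 genes tested and 4.45% together. These included 144 of the 145 genes called over 3 pairs (99.3%), which are 31.2% of the 462. The exception was Cyb561, a cytochrome of ascorbate-dependent electron transport, which did not reach 1 RPM in enough of these libraries to be tested. The 462 calls became 105 and 94 without the 6 h or the 12 h pair of C17.2a, where the lone pair left is assumed to vary like those of C17.2b, 203 without a filter on low values, 15 when the pairing was ignored and 746 with the C17.2a libraries alone, which left 1 degree of freedom.

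Several genes rose strongly at 6 and 12 h and were not called over 3 pairs. Aqp1, a water channel of the choroid plexus, lay at 3.32, 4.80 and 8.88 RPM without T3 and at 87.7, 75.1 and 7.87 RPM with T3. The T3 libraries of 6 and 12 h were above all others, and that of 24 h was just below its untreated partner, and the log2 fold change was 4.04 (SE 0.23) with an adjusted p of 7.85e-06 at 6 and 12 h against 2.64 (SE 0.73) with an adjusted p of 0.141 over 3 pairs. Mapkapk3, a stress kinase downstream of p38, had 2.94, 1.33 and 4.18 RPM without and 15.6, 16.6 and 3.82 RPM with T3, and Plxnd1, a semaphorin receptor, 3.79, 2.40 and 12.2 RPM and 22.4, 11.2 and 5.61 RPM. Their log2 fold changes at 6 and 12 h were 2.49 (SE 0.22) with an adjusted p of 0.00014 and 2.07 (SE 0.18) with an adjusted p of 0.000143. Both were below untreated at 24 h, as was the myosin Myo18a (3.48, 3.20 and 12.3 RPM without, 19.3, 19.4 and 10.8 RPM with T3). After the correction for base composition described below, the 24 h log2 ratios were 0.28 for Mapkapk3, 0.49 for Myo18a and -0.27 for Plxnd1.

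Klf9 was also above untreated at 6 and 12 h and below it at 24 h. It was measured at 10.4, 6.48 and 7.25 RPM without and 24.9, 19.7 and 5.25 RPM with T3, log2 ratios of 1.18, 1.47 and -0.40. At 6 and 12 h its log2 fold change was 1.32 (SE 0.17) with an adjusted p of 0.00171, and over 3 pairs it was 0.75 (SE 0.33) with an adjusted p of 0.311. Its call at 6 and 12 h was lost without the 12 h pair or when the pairing was ignored. The 24 h log2 ratio of Klf9 in C17.2b was 1.28.

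Other genes named at 6 and 12 h kept their direction at 24 h. Lgi4, a secreted factor that glia need for axon ensheathment, rose from 53.2, 86.6 and 52.2 RPM to 273, 333 and 65.6 RPM, a log2 fold change of 2.13 (SE 0.14) with an adjusted p of 1.59e-05 at 6 and 12 h. Itpk1, an inositol phosphate kinase, went from 6.57, 3.11 and 8.06 RPM to 23.3, 26 and 34.1 RPM. Lpin3, a phosphatidate phosphatase, reached 10.6, 10.1 and 20.04 RPM from 2.16, 0.98 and 6.63 RPM, and Tmem117, a membrane protein, 14.9, 11.9 and 15.2 RPM from 3.25, 1.78 and 3.16 RPM. Itpk1, Lpin3, Tmem117 and Mfsd2a were also called over 3 pairs. Mfsd2a is the transporter of lysophosphatidylcholine that carries omega-3 fatty acids into brain, and its log2 fold change at 6 and 12 h was 2.00 (SE 0.19) with an adjusted p of 0.000244. Iglon5, a neuronal adhesion protein, and Cyp26b1, which degrades retinoic acid, rose at 6 and 12 h by 2.14 (SE 0.18) with an adjusted p of 9.66e-05 and 2.02 (SE 0.47) with an adjusted p of 0.0388.

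The 12 genes named among those that fell at 6 and 12 h were all below untreated at 24 h as well, and 9 of them were called over 3 pairs. Jun, a subunit of the AP-1 factor, lay at 206, 175 and 219 RPM without and 85.8, 68.3 and 106 RPM with T3, and its log2 fold change at 6 and 12 h was -1.30 (SE 0.11) with an adjusted p of 0.000143. Mest, an imprinted hydrolase, went from 137, 124 and 343 RPM to 47.7, 59.2 and 97.9 RPM, at -1.28 (SE 0.20) with an adjusted p of 0.0046. Neat1, the nuclear RNA that builds paraspeckles, went from 97.3, 53.4 and 89.4 RPM to 36.6, 20.9 and 33.4 RPM, at -1.35 (SE 0.19) with an adjusted p of 0.00291. None of these 3 overlapped between T3 and untreated, a description of genes chosen from these libraries. Syt4, a synaptotagmin of secretory vesicles, Shroom2, an actin regulator, and Gcnt1, a glycosyltransferase of O-glycans, had log2 ratios of -1.63, -1.35 and -1.36, of -1.03, -2.11 and -1.52 and of -1.91, -1.28 and -0.44 at 6, 12 and 24 h. Cmpk2, Sh2d3c, Pde8b and Akap12 had log2 fold changes at 6 and 12 h of -1.5 (SE 0.21), -1.38 (SE 0.20), -1.34 (SE 0.25) and -1.32 (SE 0.23). Without the 6 h or the 12 h pair 9 and 8 of the 12 calls were lost, and ignoring the pairing lost all 12 of these and 9 of the 12 named among the genes that rose.

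The promoters of the genes that responded at 6 and 12 h were searched for the receptor's half-site. RefSeq promoters (build GRCm38.p6, from 250 bases before to 50 bases after a gene's start) were matched for 8306 of the 10391 tested genes, 230 of the 291 that rose and 129 of the 171 that fell. The half-site AGGTCA, on either strand, was in 14.5% of all these promoters, 17% of those of genes that rose and 20.2% of those of genes that fell. The direct repeat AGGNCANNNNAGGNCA, with half-sites that may each be AGGTCA and a spacer of 4 bases, is the textbook arrangement for these receptors. It was in 23 promoters (0.277%), in 3 of those of genes that rose (1.3%) and in 0 of those of genes that fell. A match is a description of the letters and not evidence of binding, and these small counts were not tested.

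The 3 genes were Tmem117, Psmb10 and Tmem20 (now Slc35g1), chosen for this match after the search. The match of Tmem20 spans the gene start, so no sequence is shown for it. The other 2 are printed 5′ to 3′ along the gene's strand, 100 bases each, with matches in capitals, which here are the reverse complement of the repeat. In Tmem117, chr15:94628986-94629085, plus strand, 3 overlapping matches begin 159 bases before the gene start. In Psmb10, an immunoproteasome subunit, chr8:105938393-105938492, minus strand, the match begins 52 bases before the start and the half-site printed last is AGGTCA on the opposite strand. Tmem20 rose by 1.77 (SE 0.21) with an adjusted p of 0.000948 at 6 and 12 h. Psmb10 had 41.8, 31.4 and 66.1 RPM without and 63.1, 47.1 and 63.2 RPM with T3, and its log2 fold change at 6 and 12 h was 0.58 (SE 0.13) with an adjusted p of 0.031.
Tmem117: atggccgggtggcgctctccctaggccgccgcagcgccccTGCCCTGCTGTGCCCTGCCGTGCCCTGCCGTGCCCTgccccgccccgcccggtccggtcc
Psmb10: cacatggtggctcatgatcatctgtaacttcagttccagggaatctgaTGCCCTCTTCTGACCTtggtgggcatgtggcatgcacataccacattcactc

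The gene groups were read as counts of tested members that passed and as the median log2 fold change beside that of all genes, which was -0.06 over 3 pairs and -0.01 at 6 and 12 h. The lists were written with earlier results of these data known, and several hold genes named above by size. Their counts therefore describe the lists and are no separate support. The shares of all genes called, against which the counts stand, were 1.37% over 3 pairs and 4.45% at 6 and 12 h (2.8% higher, 1.65% lower). Of the hypoxia response genes 12 of 31 rose at 6 and 12 h and 0 fell, with a list median of 0.58, and 4 of 31 rose over 3 pairs, with a median of 0.74. The summed level of the list was slightly lower with T3 at 6 h (12686 RPM without, 11841 RPM with T3) and higher at 12 h (11472 and 15023 RPM) and 24 h (14278 and 22353 RPM). Besides Epas1 the genes that rose included Vegfa, the vascular growth factor, which went from 7.11, 7.20 and 21.3 RPM to 22.3, 33.5 and 29.2 RPM, a log2 fold change at 6 and 12 h of 1.80 (SE 0.21) with an adjusted p of 0.000781. Pfkfb3, an activator of glycolysis, went from 6.03, 3.82 and 8.57 RPM to 16.9, 11.9 and 25.8 RPM, a log2 fold change over 3 pairs of 1.42 (SE 0.17) with an adjusted p of 0.00966. The collagen prolyl hydroxylase subunit P4ha2 and the hexokinase Hk2 also passed in both fits. Over 3 pairs the calls of P4ha2 and Hk2 each held under only 5 of the 15 alternatives run. Hif1a, the sister factor of Epas1, rose at 6 and 12 h by 0.54 (SE 0.12) with an adjusted p of 0.0274. The median log2 ratio of the list was 0.43, 0.74 and 0.84 at 6, 12 and 24 h.

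Genes of fatty acid synthesis that passed all rose. Of 20 tested genes of fatty acid synthesis 5 rose and 0 fell at 6 and 12 h (3 and 0 over 3 pairs), with medians of 0.17 and 0.21. They were Scd1, the stearoyl-CoA desaturase (132, 142 and 183 RPM without, 259.8, 357 and 422 RPM with T3), Srebf1, the transcription factor of lipid synthesis (237, 230.4 and 236 and 568, 511 and 363 RPM), Lpin3, Dgat2 and Fasn. Fasn, the fatty acid synthase, rose at 6 and 12 h by 0.81 (SE 0.16) with an adjusted p of 0.0185 and had a log2 ratio of -0.07 at 24 h. Of 21 genes of cholesterol synthesis and uptake only the exporter Abca1 passed in either fit, and it rose. That is 4.76% of the list, near the 4.45% of all genes called at 6 and 12 h. Of 23 glycolysis genes 5 rose and 1, the lactate dehydrogenase Ldhb, fell at 6 and 12 h.

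Known T3-responsive genes were 25 among those tested, of which 7 rose and 1 fell at 6 and 12 h and 4 rose and 1 fell over 3 pairs. Their median was 0.56 at 6 and 12 h and 0.47 over 3 pairs. The genes that rose in both fits were Hr, Srebf1, Stat5a, a cytokine-activated transcription factor, and Gpd2, the mitochondrial glycerol phosphate dehydrogenase, and the gene that fell was Nefm. Klf9, Fasn and Tgm2 rose at 6 and 12 h. None of the 19 tested genes of the receptor machinery (receptors, retinoid X partners, coregulators and hormone transporters among them) passed over 3 pairs in limma, and their median log2 fold change was 0.12. Among cytokine pathway genes 3 of 17 rose in both fits, which were Cxcr7, Socs2 and Stat5a, and 0 fell.

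In the list of neuronal genes more members fell than rose, but the list was written with earlier results of these data known. It holds Kctd12, Kcnmb4, Nefm, Syt4 and Kcna1, which were named above by size, so its counts only describe the list. At 6 and 12 h 6 of 13 tested fell and 1 rose, and over 3 pairs 5 of 14 fell and 1 rose, with medians of -0.77 and -0.64. Kcna1 was the gene that rose, and with it the summed level of the list was higher with T3 at 6 and 12 h (335 and 329.6 RPM without, 507 and 498 RPM with T3), against the median. Fewer cells of a type and less RNA per cell cannot be told apart in bulk libraries. Beside Kctd12, Nefm, Syt4 and Kcnmb4 the synaptic organiser Lrrtm2 fell in both fits, and Mtap2, a microtubule protein of dendrites, at 6 and 12 h. Of 24 adhesion genes 7 fell and 2 rose at 6 and 12 h, with a median of -0.23, and 6 fell and 1 rose over 3 pairs, with a median of -0.47. The 6 were Chl1, Mcam, Cdsn, Prickle2, Epb4.1l3 and Epb4.1l4b, and the 1 was Flrt1, all named above by size. This list too was written with earlier results of these data known, so its counts are a description and no separate support. L1cam, the neural adhesion molecule, had 37.7, 42.1 and 117 RPM without and 16.3, 16.4 and 4.29 RPM with T3, and its log2 fold change at 6 and 12 h was -1.24 (SE 0.15) with an adjusted p of 0.000963. In the opposite direction Itga7, a laminin receptor, rose at 6 and 12 h and had a log2 ratio of -3.05 at 24 h.

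Of 17 progenitor markers 3 fell and 1 rose at 6 and 12 h, and 1 fell over 3 pairs. Notch1, the receptor that keeps progenitors undifferentiated, had 43.5, 45.0 and 51.9 RPM without and 20.3, 20.6 and 34.7 RPM with T3, a log2 fold change at 6 and 12 h of -1.08 (SE 0.13) with an adjusted p of 0.000963. Sox2 and Vim fell, with log2 fold changes at 6 and 12 h of -1.04 (SE 0.14) with an adjusted p of 0.00218 and -0.80 (SE 0.15) with an adjusted p of 0.0135. Gli3, a transcription factor of hedgehog signalling, rose by 1.08 (SE 0.20) with an adjusted p of 0.0122. The summed level of the progenitor list was lower with T3 in each pair, at 3207, 2802 and 6161 RPM without and 2067, 1835 and 2045 RPM with T3. Most of this sum was Vim, which lay at 2334, 1928 and 4941 RPM without and 1327, 1112 and 1298 RPM with T3. The median log2 ratio of the list was -0.17, 0.04 and -0.57, and 8 of its 17 genes had a positive log2 fold change at 6 and 12 h. Of 8 oligodendrocyte and Schwann cell genes Pmp2 fell over 3 pairs and none rose. Of the 10 tested genes of the astrocyte list Slc1a2 and Aqp1 rose at 6 and 12 h and 0 fell. The list medians were 0.18 at 6 and 12 h and 0.08 over 3 pairs, where only Slc1a2 passed. The summed level of the mesenchymal markers was also lower with T3 in each pair (4271, 3528 and 4077 RPM without, 2901, 2217 and 2357 RPM with T3), and its part in these results was not tested. Of the 5 tested Postn, a matrix protein, fell in both fits, from 783, 659 and 1413 RPM to 447, 266 and 396 RPM. Ccnd1, the G1 cyclin, fell from 190.3, 218 and 275 RPM to 109, 70.7 and 104 RPM, at -1.27 (SE 0.19) with an adjusted p of 0.021. No gene of the S phase (19 tested), mitosis (20), ribosomal protein (49), unfolded protein (16) or interferon lists (12) passed over 3 pairs, and none did at 6 and 12 h.

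Other lists gave few calls, to be set against 2.8% of all genes called higher and 1.65% called lower at 6 and 12 h. Of 31 extracellular matrix genes 2 rose at 6 and 12 h, Npnt and Nid2, and 4 fell, Tnc, Nid1, Has2 and Adamts1. Of 24 cytoskeletal and serum response factor targets 2 fell at 6 and 12 h, Vcl and Flna, and 0 rose, and over 3 pairs 0 of 24 passed in limma. Of 18 immediate early genes Fosl1, a partner of Jun, rose by 1.07 (SE 0.18) with an adjusted p of 0.00665, and Jun and Spry2 fell. Among 19 genes of BMP and TGF-beta signalling Smad7, an inhibitory Smad, rose and Fst, the activin antagonist follistatin, fell, and among 14 Wnt genes the receptor Fzd7 rose and Ccnd1 fell. The amino acid transporters Slc43a2 and Slc1a5, 2 of the 11 tested, rose, as did the pro-apoptotic Bcl2l11 and the stress gene Gadd45a, 2 of 17 apoptosis and p53 genes. Of 14 clock genes Bhlhe40 rose and Nfil3 fell. The call of Bhlhe40 held under 13 of the 15 alternatives run and that of Nfil3 under only 6.

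**Figure D2:**
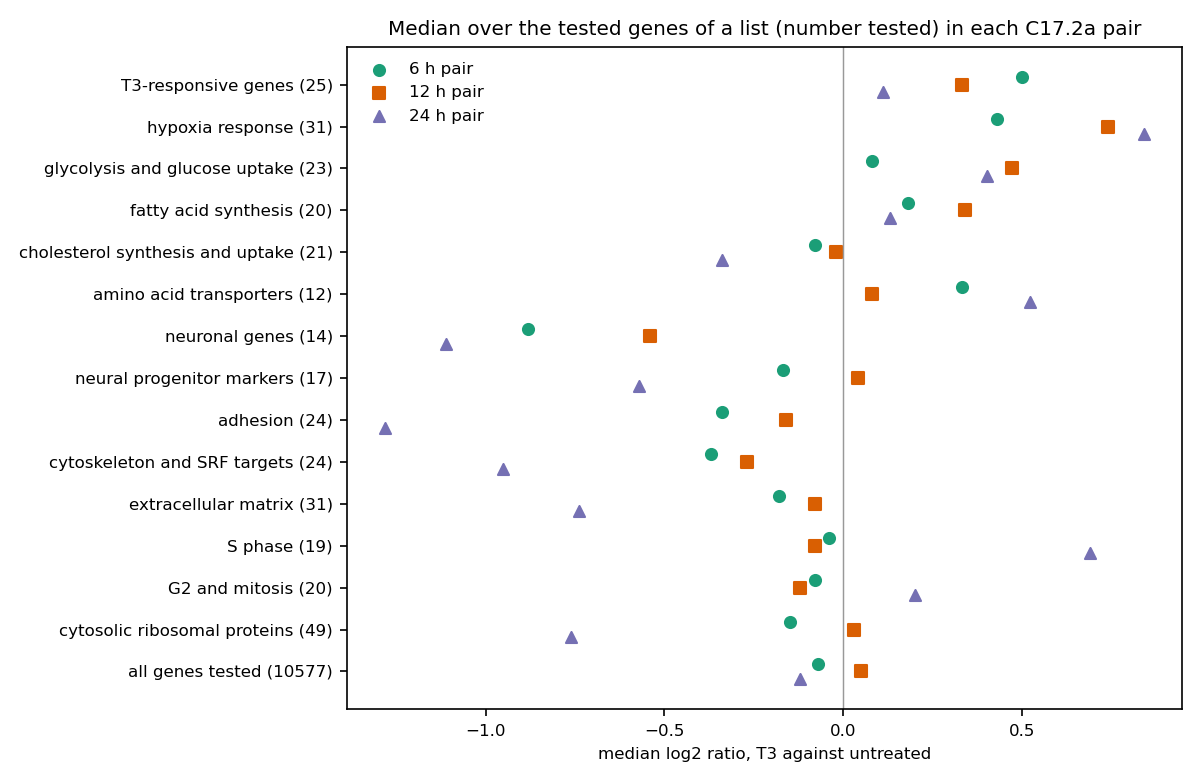
Median log2 ratio (x axis, T3 against untreated on the log2(RPM + 1) scale) over the tested genes of 14 gene lists and of all genes, 1 symbol per C17.2a pair and the number tested in brackets. The hypoxia list had medians of 0.43, 0.74 and 0.84 and the neuronal list of -0.88, -0.54 and -1.11, the S phase list of -0.04, -0.08 and 0.69 and the ribosomal list of -0.15, 0.03 and -0.76.

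In the 24 h pair many more genes lay apart than in the earlier pairs. With a prior of 2 tags and at least 50 tags in the pair, 195 genes were at least 2-fold higher and 148 at least 2-fold lower at 6 h (2.14% and 1.62% of 9111). At 12 h these were 243 and 107 (2.64% and 1.16% of 9212), and at 24 h 606 and 1801 (6.51% and 19.4% of 9305). The median log2 ratio was -0.12 at 24 h, and after centring on the pair's median the 24 h counts were 747 and 1648. Of 8779 genes with 50 tags in each pair, 374 were higher and 1090 lower by 2-fold at 24 h with less than a 1.5-fold difference at 6 and 12 h. Such genes were 11 and 20 for 6 h alone and 20 and 9 for 12 h alone. Of the 1090 genes 15 (1.38%) were also 2-fold lower in the C17.2b pair of 24 h, and of the 374 genes 16 (4.28%) were 2-fold higher there, beside 155 (1.77%) and 388 (4.42%) of all 8779 genes. The shares of the 24 h genes were thus near those of all genes. A single pair has no test.

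The lowest ratios of 24 h alone belonged to genes that were nearly lost from 1 library. Prrc2a, a proline-rich RNA-associated protein, had 59.2, 49.1 and 128 RPM without T3 and 61.4, 71.8 and 1.07 RPM with T3, and Ogfr, the opioid growth factor receptor, 8.97, 7.64 and 17.7 and 11.2, 10.8 and 0.00 RPM, the last an N/A. The other 6 of the 8 lowest were gamma protocadherins. The 22 Pcdhg symbols tested had medians of 24.13 RPM without T3 and 0.14 RPM with T3 at 24 h, against 8.45 and 6.3 RPM at 6 h. These genes share their 3′ exons, 16 of the 22 had the values of another symbol in all 6 C17.2a libraries when rounded to 1 decimal of RPM, and they are taken as 1 uncertain measurement. The highest ratios of 24 h alone included Gad2, a glutamate decarboxylase (9.83, 8.43 and 2.97 RPM without, 8.62, 8.58 and 16.1 RPM with T3), and Camk4, a calcium-dependent kinase (11.5, 10.3 and 3.89 and 10.4, 9.43 and 18.2 RPM). Nol6, a nucleolar protein, and Hyal1, a hyaluronidase, had 24 h log2 ratios of 2.25 and 2.01.

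The ratios of the 24 h pair also followed base composition. Transcript GC content was known for 99.1% of the tested genes, and its Spearman correlation with the log2 ratio across genes was 0.09, 0.01 and -0.34 for the C17.2a pairs of 6, 12 and 24 h and 0.15, 0.03 and 0.12 for those of C17.2b. Genes are not independent replicates, and they share libraries and depth. The median log2 ratio at 24 h was 0.2 in the lowest of 5 equal groups of genes by GC content and -0.62 in the highest. From 12 to 24 h the change of level had a correlation with GC content of 0.29 without T3 and -0.07 with T3, against 0.21 and 0.25 in C17.2b. The 1090 genes lower at 24 h alone had a median GC content of 53.8%, the 374 higher ones 45.4% and all 8779 genes 49.3%. The part of base composition in the 24 h differences was not tested beyond a correction for it, after which 781 genes were 2-fold higher and 1395 lower at 24 h. With that correction 222 genes were called over 3 pairs, 137 of them among the 145, and 463 at 6 and 12 h.

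**Figure D3:**
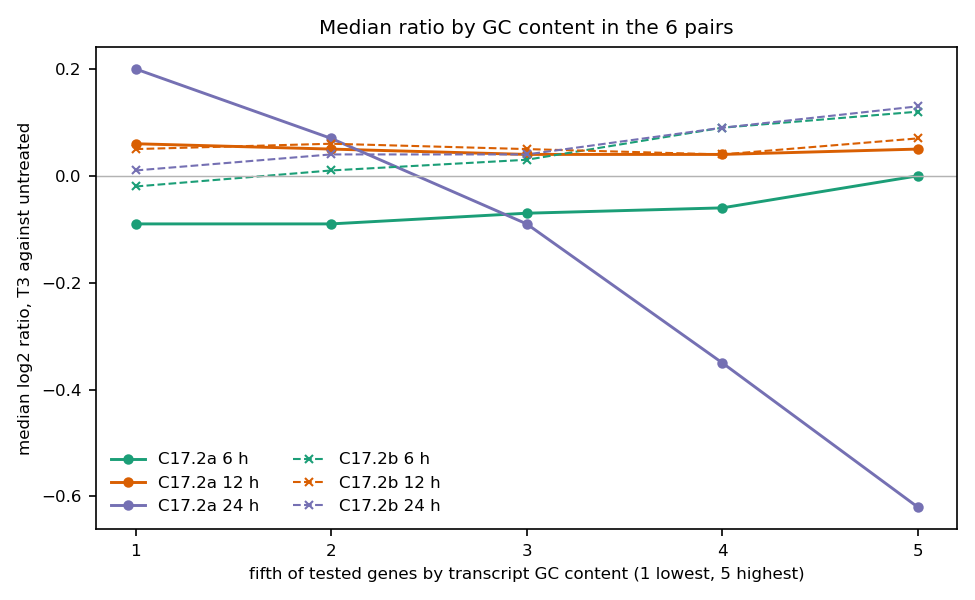
Median log2 ratio (y axis, T3 against untreated) in 5 equal groups of the tested genes ordered by transcript GC content (x axis), 1 line per pair, solid for C17.2a and dashed for C17.2b. The C17.2a 24 h line descends from 0.2 to -0.62, and the other 5 lines stay between -0.09 and 0.13.

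Most genes called at 6 and 12 h pointed the same way at 24 h, which was not used to call them. Of the 291 that rose 217 (74.6%) were above untreated at 24 h, where 44.5% of all tested genes were (2.8% of genes were called), and 23 were at least 2-fold below. Of the 171 that fell 148 (86.5%) were below untreated, where 55.5% of all genes were, and 1 was 2-fold above. In the 3 C17.2b pairs 284 to 285 of the 291 and 156 to 160 of the 171 pointed the same way, where 55.7% to 57.6% of all tested genes were above and 42.3% to 44.2% below untreated. The C17.2b libraries had helped to set the spread. The 74 genes that rose and were not above untreated at 24 h had a median GC content of 56.5%, against 51.8% for the other 217. After the GC correction 245 of 291 and 134 of 171 pointed the same way at 24 h.

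The genes whose 24 h ratio lay farthest below their rise at 6 and 12 h are given as a description, since this distance chose them. They were Aqp1 and the membrane and matrix genes Ano8, Itga7, Fam38a (now Piezo1), Furin and Hspg2. Furin, a proprotein convertase, had 20.9, 13.2 and 51.5 RPM without and 54.6, 57.2 and 15.9 RPM with T3, Hspg2, the basement membrane proteoglycan perlecan, 11.1, 19.99 and 50.1 and 31.1, 35.0 and 10.7 RPM, and Fam38a, a mechanically gated channel, 14.7, 18.8 and 111 and 37.3, 32.6 and 17.18 RPM. In each of the 3 the untreated level was highest at 24 h and the T3 level lowest. Their C17.2b log2 ratios at 24 h were 2.07, 0.98 and -0.06. Among genes that fell at 6 and 12 h the heme synthesis enzyme Cpox had log2 ratios of -0.39, -0.73 and 1.32, and the chemokine Ccl7 of -1.04, -0.66 and 0.49. After the GC correction the single-pair log2 ratio of Aqp1 at 24 h was 0.28 in place of -0.16, and those of Furin, Hspg2 and Fam38a were -1.16, -1.37 and -1.93.

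**Figure D4:**
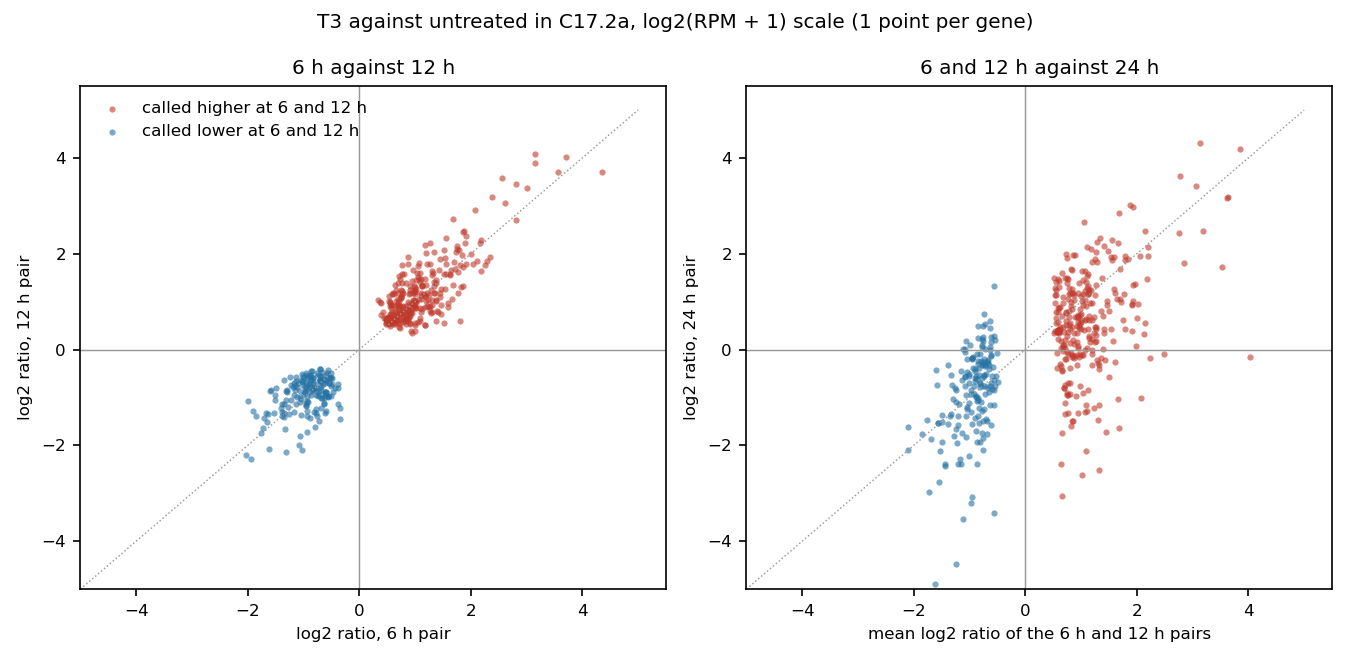
The 462 genes called at 6 and 12 h (red higher, blue lower, 1 point each), with the 6 h log2 ratio against the 12 h log2 ratio on the left and their mean against the 24 h log2 ratio on the right; dotted lines mark equal values. The left panel shows the values that chose the genes, and on the right 217 of 291 red points lie above 0 and 148 of 171 blue points below it.

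Some lists lay farther from all genes at 24 h than before. The S phase list had a median log2 ratio of 0.69 at 24 h against -0.04 and -0.08 before, and its summed level was 886 RPM without and 1869 RPM with T3. Pcna, the sliding clamp of DNA replication, lay at 273, 546 and 201 RPM without and 267, 518 and 609.5 RPM with T3. The cytosolic ribosomal protein list had a median of -0.76 at 24 h, the extracellular matrix list of -0.74 and the list of cytoskeletal and serum response factor targets of -0.95, beside -0.12 for all genes. In C17.2b at 24 h these 4 lists had medians of -0.22, -0.21, 0.04 and -0.03. None of these 24 h values has a replicate, and the T3 library that stands apart is in each of them.

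Some genes differed at a single early time. The 4 with the highest ratios at 6 h alone included Zdhhc8, a palmitoyltransferase (4.10, 11.5 and 25.8 RPM without, 15.7, 14.7 and 38.4 RPM with T3), and the 4 with the lowest held Calm2, a calmodulin gene (517, 518 and 1300.3 and 173, 451 and 868 RPM). At 12 h alone Nt5dc3 was higher (16.2, 6.31 and 25.3 and 15.8, 20.4 and 17.4 RPM) and Insig2, which holds back sterol regulatory proteins, lower (27.2, 27.3 and 45.1 and 25.2, 9.70 and 38.0 RPM). In Zdhhc8 and Nt5dc3 it was the untreated library, and in Calm2 and Insig2 the T3 library, that lay below the other times. These are single libraries, and the numbers of such genes were small beside those of 24 h.

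The response of C17.2a was set against that of C17.2b with an interaction in limma, over all pairs in the same fit as above. Over all pairs 0 of 10577 genes passed in limma, with 583 genes at an unadjusted p under 0.05, and 0 passed with voom on implied tags, with 590. Tgm2 had the smallest adjusted p, 0.178. Without the 24 h pairs of both lines 6 of 10187 genes passed (0.0589%), 5 with a lower and 1 with a higher value in C17.2a. That was a separate fit, with 2 residual degrees of freedom. A p that misses the threshold does not show that the lines responded alike.

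Tgm2, a transglutaminase and known target of retinoid receptors, rose less in C17.2a and started from a higher level. It lay at 83.7, 60.9 and 75.1 RPM without and 145, 97.4 and 129 RPM with T3 in C17.2a, and at 20.1, 18.6 and 22.0 and 164, 139 and 113 RPM in C17.2b. The difference of the log2 responses, C17.2a minus C17.2b, was -2.17 (SE 0.18) with an adjusted p of 0.000156. Rgs16, a regulator of G protein signalling, fell less in C17.2a, from 107, 111 and 118 RPM to 41.5, 43.8 and 81.2 RPM against 199, 179 and 265 to 26.1, 25.1 and 32.0 RPM, a difference of 1.5 (SE 0.18) with an adjusted p of 0.00614. Both had lower T3 responses in size in C17.2a at each of the 3 times.

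Dmpk, the myotonic dystrophy kinase, and Hspa1b, an inducible heat shock protein, were higher with T3 in both lines at 6 and 12 h. Their log2 ratios at 6, 12 and 24 h were 0.82, 0.72 and -2.45 for Dmpk and 0.98, 1.23 and 2.14 for Hspa1b in C17.2a, against 2.11, 2.62 and 1.69 and 2.50, 2.75 and 3.10 in C17.2b. The differences were -1.59 (SE 0.24) with an adjusted p of 0.0324 and -1.52 (SE 0.24) with an adjusted p of 0.0361. Enho, a secreted metabolic peptide, had log2 ratios of -0.27, -0.18 and -1.96 in C17.2a and 1.08, 1.47 and 1.0 in C17.2b, a difference of -1.5 (SE 0.24) with an adjusted p of 0.0411. Osr1, a zinc finger transcription factor, had -1.85, -1.40 and -4.89 and 0.51, 0.14 and -0.84, a difference of -1.95 (SE 0.28) with an adjusted p of 0.0224, and its 24 h T3 value in C17.2a is an N/A. Of the 12 alternatives run, the call of Tgm2 held under 11, that of Rgs16 under 10, that of Osr1 under 8 and those of Dmpk, Hspa1b and Enho under 6 each. The number that passed was 114 and 180 without the C17.2a pair of 6 or 12 h, and 13 and 18 without that of C17.2b, and in these fits 1 line is represented by a lone pair assumed to vary like the others.

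**Figure D5:**
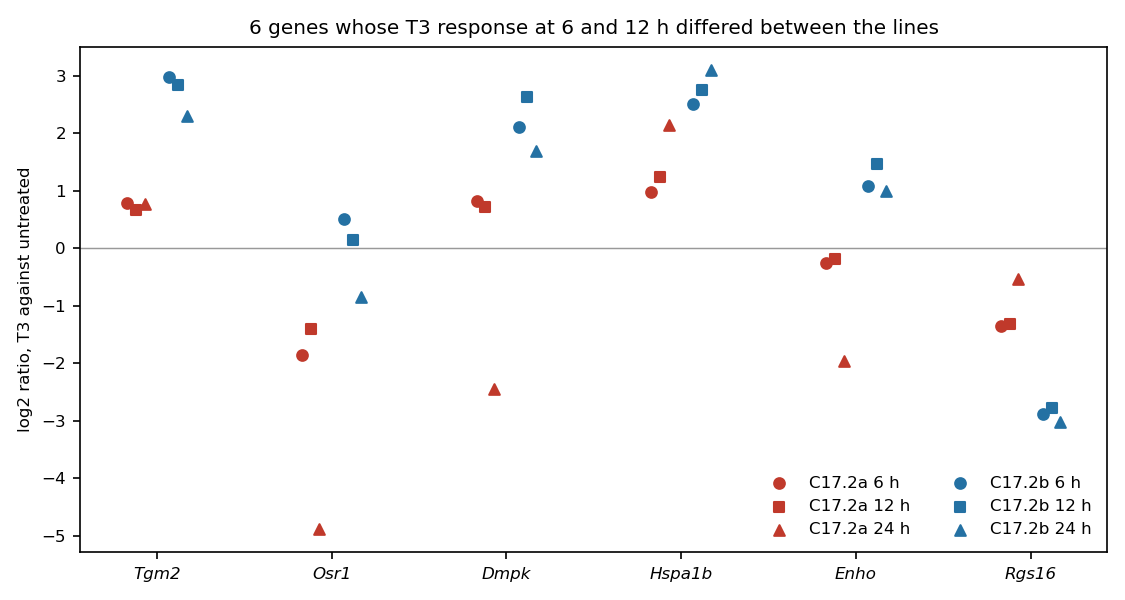
Log2 ratio of T3 against untreated (y axis) in each pair for the 6 genes that passed the test of a difference between lines at 6 and 12 h; red is C17.2a, blue C17.2b, and circles, squares and triangles are 6, 12 and 24 h. At 6 and 12 h the lines do not overlap in any of the 6 genes, which is what the test selected, and the 24 h triangles were not used.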

How the data were processed

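The members and the gene lists were chosen with earlier results of these data known. PolyA RNA was reverse-transcribed, per the labels' protocols, and sequenced as tags. The authors deposited 1 table of 12774 symbols in RPM, a unit read from the column sums, and per the submitters' processing notes the build was mm9. The aligner, the rule from tags to genes and the strand are not given in the sources used here. Each library's step between low values gives its implied depth. Between 88.9% and 93.6% of low values were whole multiples of the step (tolerance 0.0055 RPM), which leaves the tags unrecovered, and a count test was not used. N/A was read as 0. Intervals and floors cover counting error only.

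A gene entered a fit if 3 or more of its libraries reached 1 RPM. The values were fitted as log2(RPM + 1) with limma 3.58.1 in R 4.3.3 (trend, pairs as blocks, both lines in 1 fit), after tests on simulated data. Residual degrees of freedom were 4 over all pairs, 3 without the C17.2a 24 h pair and 2 for the lines compared at 6 and 12 h. Named genes were the 12 highest and 12 lowest called with 1 sign in each pair and a mean of 20 tags, those of 6 and 12 h not already named, the farthest from their 24 h ratio, single-pair genes, up to 4 per list, the smallest p between lines, and Thra, Thrb, Klf9 and Hr. Some genes that the rule picks are not described. Dio3 and Thrsp were not analysed here. GC content came from the longest GENCODE M21 transcript. Of the symbols 11837 were current, 821 matched by synonym and 116 did not match. Alternatives were another scaling, other filters and pseudocounts, voom on implied tags, no pair block, C17.2a alone, each pair left out and, chosen after seeing the data, a GC correction and other limits for single pairs.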

Additional observations from a re-analysis of the deposited data

Results flagged for a closer look

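At 6 and 12 h the T3 response differed between the lines for 6 genes in limma's test of the difference. The difference of log2 responses, C17.2a minus C17.2b, was -2.17 for Tgm2, -1.95 for Osr1, -1.59 for Dmpk, -1.52 for Hspa1b, -1.5 for Enho and 1.5 for Rgs16. Enho and Osr1 had opposite signs in the lines at 6 and 12 h.

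The 24 h pair of C17.2a ran against the 6 and 12 h pairs for the genes given here, a difference that was not tested. Their 24 h log2 ratios were -0.16 for Aqp1, -2.52 for Ano8, -3.05 for Itga7, -2.62 for Fam38a, -1.64 for Furin and -2.12 for Hspg2 after a rise at 6 and 12 h. After a fall at 6 and 12 h they were 1.32 for Cpox, 0.49 for Ccl7, 0.53 for Ric8b, 0.19 for Pkp2 and 0.49 for Pacsin2. These genes were chosen for this distance.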

How the results depend on the processing

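The C17.2a response over 3 pairs had between 104 and 166 genes under scaling, filters, pseudocounts and voom. It had 28 without the pair block, 222 with the GC correction and 12 in C17.2a alone, and 32 to 462 when each pair was left out. The 6 and 12 h response had 359 to 487 genes under scaling, the 5 RPM filter, pseudocounts, voom and the GC correction. It had 203 without a filter, 15 without the block, 746 in C17.2a alone, and 94 to 680 when each pair was left out. Of the 24 genes named by size over 3 pairs 8 that rose and 1 that fell kept their call under each alternative that could be fitted, and none changed sign. The difference between lines over all pairs had 0 genes, with 0 to 2 when each pair was left out. At 6 and 12 h its 6 genes became 3 under median-ratio scaling, 1 without a filter, 2 with the 5 RPM filter, 0 without the block, 2 with the GC correction and 13 to 180 when each pair was left out. A limit of 200 tags a pair left fewer genes to count. The 2-fold genes were then 113 higher and 69 lower at 6 h and 144 and 57 at 12 h. At 24 h they were 478 higher and 1076 lower. The cause of these and the other shifts was not tested. In C17.2a a level of 3 tags is between 0.212 and 0.358 RPM, depending on the library.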
